A study of Mus musculus with 12 samples.

Results

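Gene expression was read by RNA sequencing in the control colonic myofibroblasts of a study of tumor necrosis factor receptor 1 (TNFR1), and the control libraries alone are described here. They are the 6 libraries of 12 whose labels give the genotype as control (TNFR1-/+). These cells carry 1 disrupted allele of Tnfrsf1a, the gene of TNFR1, so they are heterozygous and not wild type. All 6 have the same label: C57BL/6 background, distal colon of mice 16 weeks old, primary colonic myofibroblasts at passage 6 to 8, untreated, taken 5 days after seeding in Matrigel. The cells had been grown out of digested colon wall in medium with 10% serum and 20 ng/mL epidermal growth factor, and per the labels' protocols only myofibroblasts still divided after 1 week. The libraries are called control 1 to control 6 after the replicate numbers in their titles. How many mice or cultures they came from is not given in the sources used here, so a spread between them may be technical.

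Colonic myofibroblasts are fibroblast-like cells under the epithelium that make extracellular matrix and can contract through smooth muscle actin. They form part of the stem cell niche of the crypt, where Wnt ligands and R-spondins keep stem cells dividing and BMP ligands promote differentiation. Mesenchymal cells also secrete BMP antagonists, growth factors, prostaglandins and chemokines that act on epithelium and leukocytes.

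Total expected counts were 13222933, 12879597, 13352649, 13833260, 11890729 and 16458689 in control 1 to 6. Levels are given as CPM, counts per 1e6 counts of the scaled library size, and where genes are compared with each other, also as a level per length in TPM, counts per kilobase of the longest reference transcript rescaled to the same sum in each library. Of 24411 gene symbols, 11623 had at least 1 CPM in all 6 libraries and are called expressed. Another 10075 had at most 3 counts in every library and are called near the detection limit, 7452 of them with no count at all. The remaining 2713 lay between. At these depths 3 counts, the upper limit that a count of 0 allows, amount to 0.191 to 0.245 CPM, a bound that covers counting error only.

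Control 1 to 5 were nearly alike and control 6 stood apart from them. Spearman correlations over the expressed genes were 0.996 to 0.998 among control 1 to 5 and 0.947 to 0.949 between control 6 and each of them. The chi-square of the counts per degree of freedom was 1.38 to 3.89 for pairs among control 1 to 5, above sampling noise, and 169.7 to 178.9 for pairs with control 6. Among control 1 to 5 it was 1.38 to 1.61 for pairs of control 1, 3 and 4, and 1.57 for control 2 with control 5. Pairs across these sets had 2.38 to 3.89, so control 2 and 5 differed slightly from control 1, 3 and 4. For genes of 1 to 100 CPM the spread among control 1 to 5 was nonetheless about what counting alone gives, with a median coefficient of variation 0.995 and 1.06 times the counting value in the bins from 1 and from 10 CPM. It was 1.45 and 3.72 times that value in the bins from 100 and from 1000 CPM. A gene was counted as departing when control 6 lay at least 2-fold above the highest or below the lowest of control 1 to 5 on a CPM + 0.5 scale. By this rule, which is a description of 1 library and not a test, 604 of 12428 genes counted were higher in control 6 (4.86%) and 379 were lower (3.05%). On library totals without scaling factors, which shift the median log2 ratio over all genes to -0.11, the rule gave 484 higher and 505 lower. The same rule applied to each of control 1 to 5 beside the other 4 gave 0 to 6 genes per library, both directions together. Just inside the rule lay Zzef1, at 127 CPM in control 6 and at most 63.4 in the others, and Gas5, at 78.8 CPM and at least 158. Just outside it lay Pcdhga2, at 25 CPM in control 6 and at most 12.2 in the others, and Ostc, at 83.8 CPM and at least 168.

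Transcript length moved with these ratios. The genes higher in control 6 had a median length of 3.88 kb and those lower 2.29 kb, beside 3.18 kb over all genes counted that have a length. The median log2 ratio of control 6 to the mean of control 1 to 5 was -0.37 for genes under 1 kb, -0.21 from 1 to 2 kb, -0.03 from 2 to 4 kb, 0.14 from 4 to 8 kb and 0.25 from 8 kb upward. Under 1 kb it was -0.33 without ribosomal protein genes. The part of transcript length in the results below was not tested. Over all genes counted the median log2 ratio was -0.01, with 4.86% higher and 3.05% lower in control 6. The median and the counts of each group below are read beside these values.

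**Figure D1:**
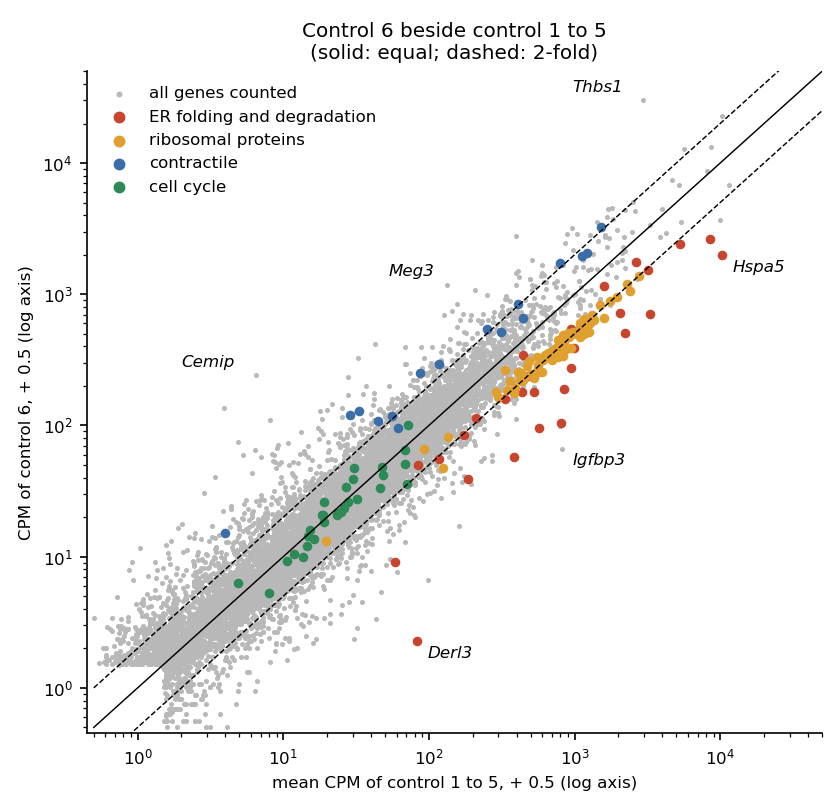
Each point is a gene, with the mean CPM of control 1 to 5 on the x axis and the CPM of control 6 on the y axis, both plus 0.5 and on log axes. The 28 genes of folding and degradation in the endoplasmic reticulum (ER) and the 81 ribosomal protein genes counted lie below the line of equality, the 16 contractile genes counted lie above it, and the 29 cell cycle genes lie on both sides of it.

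The defining myofibroblast markers were present in every library, which matches the labelled cell type. Acta2, the smooth muscle actin that marks myofibroblasts, was at 1459.7, 1608, 1490.1, 1483, 1609 and 3278 CPM in control 1 to 6. Control 6 was 2.14-fold above the mean of the other 5 and past the 2-fold rule. Tagln, an actin-binding protein of contractile cells, was at 1074, 1182, 1071, 1071, 1190.2 and 1953 CPM, again highest in control 6 but inside the rule. Vim, the intermediate filament of mesenchymal cells, was at 1888, 1985, 1897, 1910.1, 2032 and 3095 CPM. Col1a1, a chain of type I collagen, was at 8670.0, 8531, 8991, 8790.4, 8073 and 13267 CPM, with control 6 above the range of the others. Spp1, the secreted phosphoprotein osteopontin, was at 1844, 1679.6, 1830.0, 1869, 1737 and 1678 CPM, and here control 6 shared the lower end of the range with control 2. Tnfrsf1a was at 73.5, 79.5, 78.5, 81.3, 80.9 and 54.9 CPM, with control 6 below the other 5. Xist, the RNA of the inactive X chromosome, was at 0.0731, 0.0753, 0, 0.280, 0.0816 and 0.127 CPM, and the Y-linked Ddx3y was at 43.1, 47.1, 44.4, 44.6, 47.8 and 83.6 CPM, the pattern of male cells in all 6 libraries.

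The most abundant transcripts were those of matrix, its folding machinery and translation. The 20 genes with the highest mean CPM held 12.3% to 12.5% of the counts in control 1 to 5 and 14.1% in control 6. The gene set that holds 50% of the counts was 609 to 617 genes in control 1 to 5 and 535 in control 6. By mean CPM the order began with the matrix glycoprotein Fn1, the elongation factor Eef1a1, Col1a1, the ER chaperone Hspa5, the ribosomal RNA precursor Rn45s and Col1a2. Bgn, Sparc, Fbln2, Col5a2, Col3a1 and the collagen cross-linking enzyme Lox also belonged to the 20, as did Calr, Hsp90b1, Pdia3 and Serpinh1, which fold proteins in the ER. Serpinh1 is the chaperone dedicated to collagen.

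Per length the order was different. Eef1a1 led with a level of 14616 TPM, followed by the ferritin light chain Ftl1 with 10191, the ribosomal protein Rplp1 with 8738, Hsp90b1 with 6501, Hspa5 with 5938 and the galectin Lgals1 with 5923. Of the 20 highest by CPM, 12 were also among the 20 highest per length. Fn1 moved from the first place to the last of these 20. Rn45s has no length in the reference and was not ranked.

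**Figure D2:**
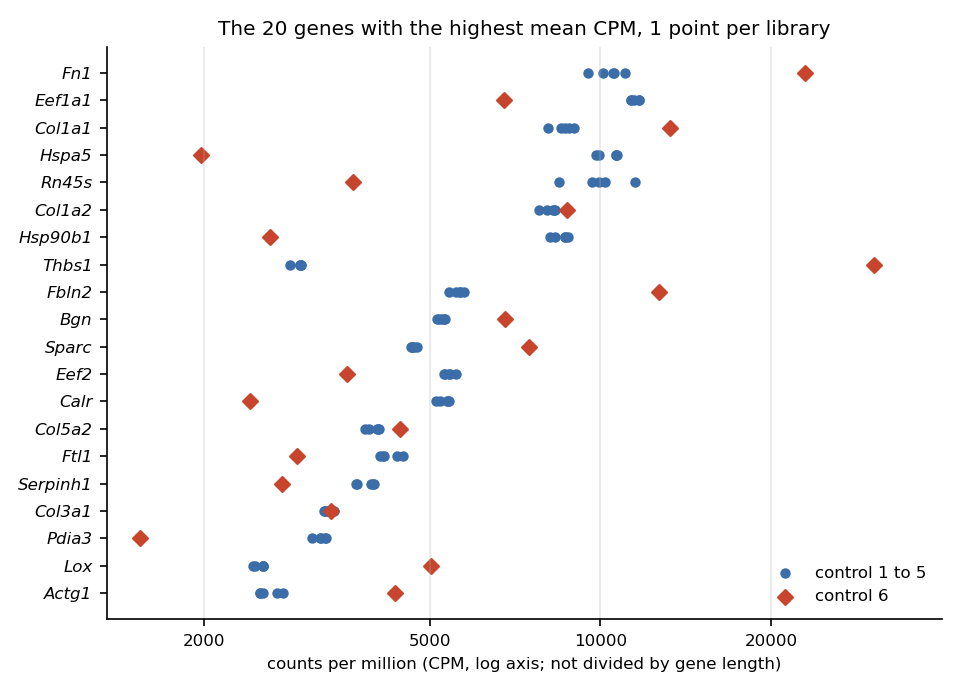
CPM on a log axis for the 20 genes with the highest mean CPM, 1 point per library. The points of control 1 to 5 overlap closely for every gene but Rn45s. The diamond of control 6 lies far above them for Thbs1 and far below them for Hspa5, Hsp90b1 and Rn45s.

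Among these 20 genes control 6 differed in both directions. Thbs1, the matricellular protein thrombospondin 1, was at 2956, 2961, 2970.2, 2954, 2835 and 30302 CPM. It took 0.292% to 0.307% of the counts in control 1 to 5 and 2.89% in control 6, where it was the most abundant gene of all. Fn1 was at 10527, 10083, 11035, 10553, 9499 and 22927 CPM, 2.22-fold higher in control 6 than the mean of the others. Fbln2, a fibulin of elastic fibers and basement membranes, was at 5656, 5558, 5754, 5647, 5402 and 12702 CPM and 2.27-fold higher. Col1a2 and Col3a1 were close to the other libraries, at 8242, 8045, 8324, 8265, 7781 and 8715 CPM and 3275, 3389.8, 3307, 3251, 3267 and 3354 CPM. Rn45s was at 9919.6, 10166, 8435, 9669, 11503 and 3669 CPM, lowest in control 6. The libraries were made from RNA selected with oligo-dT, which leaves ribosomal RNA in part.

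All 21 collagen genes listed were expressed in all 6 libraries (median log2 ratio 0.76, median length 6.45 kb). In control 6, 8 of them were higher (38.1%, beside 4.86% over all genes counted) and 1 lower (4.76%, beside 3.05%). The fibrillar chains Col1a1, Col1a2, Col5a2 and Col3a1 led by CPM. Col4a1, a chain of the basement membrane collagen, was at 1824, 1819, 1861, 1814, 1734 and 4566 CPM, and its partner chain Col4a2 had a log2 ratio of 1.31. Col12a1, which decorates collagen fibrils, was at 141, 138, 146, 139, 132 and 455 CPM, the control 6 value 3.27-fold above the mean of the others. Col14a1, a related fibril-associated collagen, went the other way, with 29.2, 29.4, 32.2, 33.4, 32.8 and 6.11 CPM. Col15a1 and Col18a1, the multiplexins of basement membrane zones, were also below the range of the others, with log2 ratios of -1.15 and -0.89, but neither passed the 2-fold rule. The list took 3.01% to 3.25% of the counts in control 1 to 5 and 4.20% in control 6.

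Of 28 matrix glycoproteins and matrix modifiers, 27 were expressed (median log2 ratio 0.88, median length 4.73 kb). In control 6, 11 were higher (39.3%, beside 4.86% over all genes counted) and 1 lower (3.57%, beside 3.05%). The list took 3.91% to 4.16% of the counts in control 1 to 5 and 9.40% in control 6. Its members Thbs1 and Fn1 alone took 0.292% to 0.307% and 0.979% to 1.14% in control 1 to 5, and 2.89% and 2.19% in control 6. Tnc, the adhesion-modulating glycoprotein tenascin C, was at 862, 899, 919, 894, 846 and 2889.8 CPM. The basement membrane linker Nid2 was at 29.7, 22.6, 30.8, 28.9, 25.3 and 170.1 CPM, while its paralogue Nid1 had a log2 ratio of only 0.79. Timp3, an inhibitor of metalloproteinases, was 3.66-fold higher in control 6, with 393, 400.3, 395, 394, 389.9 and 1444 CPM, and Timp1 and Timp2 were past the rule as well. Ctgf and Cyr61, matricellular genes known as targets of the YAP and TAZ coactivators, were at 457, 603, 452, 451, 606 and 1829 CPM and 327, 344, 321, 331, 329 and 920.4 CPM. The exception below the range was Eln, the elastin gene, which was near the threshold of expression throughout, at 1.10, 1.05, 1.31, 1.26, 0.979 and 0.191 CPM. Periostin (Postn) and decorin (Dcn) had log2 ratios of 0.30 and 0.25, inside the rule.

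Matrix-degrading enzymes were split. Of 14 metalloproteinases 13 were expressed, and the median log2 ratio was -0.03. In control 6, 3 were higher (21.4%, beside 4.86% over all genes counted) and 2 lower (14.3%, beside 3.05%). Mmp14, a membrane-bound activator of other metalloproteinases, and the gelatinase Mmp2 were the highest by CPM, at 866, 900.0, 882, 881, 893 and 1041 and 509, 545, 522, 516, 544 and 418. Mmp11 was at 374, 384, 389.6, 382, 380.4 and 147 CPM, lowest in control 6, and Adamts1 at 90.6, 90.3, 91.5, 90.0, 84.1 and 275 CPM, highest in control 6. Mmp9, the gelatinase typical of leukocytes, was at 2.45 to 3.92 CPM in control 1 to 5 and was at 0.827 in control 6.

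Of 17 contractile genes 16 were expressed in all 6 libraries. Of the 16 counted, 9 were higher in control 6 (56%, beside 4.86% over all genes counted), 7 were inside the rule and 0 lower. The median log2 ratio was 1.10, and the median among control 1 to 5 lay between -0.07 and 0.08. The list took 0.646% to 0.707% of the counts in control 1 to 5 and 1.21% in control 6. The members past the rule included genes known from mature smooth muscle. Myh11, the smooth muscle myosin heavy chain, was at 26.3, 34.5, 22.9, 26, 31.7 and 120.3 CPM, and Lmod1, which nucleates actin filaments, at 29.0, 35.8, 29.1, 33.0, 35.7 and 128 CPM. Cnn1, or calponin, was at 85, 88.6, 83.8, 85.3, 90.1 and 249.6 CPM, and the intermediate filament gene Des at 45, 43.6, 44.4, 47.1, 42.6 and 108 CPM. Myocd, the coactivator that drives smooth muscle differentiation, was almost absent, with 0.219, 0, 0.145, 0.350, 0.163 and 0.0636 CPM, while its partner Srf was at 58.6, 61.5, 61.7, 61.3, 60.2 and 94.8 CPM. A CArG box, the element that SRF binds, was found on either strand in the promoter windows of Myl9, Cnn2 and Srf, 3 of the 13 list members with a window (23.1%), beside 1.81% of all symbols of the RefSeq promoter table. Of these 3 genes none passed the 2-fold rule. In a bulk sample, more cells of a type and more RNA per cell cannot be told apart.

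Of 18 genes of focal adhesions and integrins, 17 were expressed, with a median log2 ratio of 1.06 (median length 4.97 kb). Of these 17, 9 were higher in control 6 (52.9%, beside 4.86% over all genes counted) and 0 lower. Vcl, or vinculin, which ties adhesions to actin, was at 409, 414, 414, 414, 407 and 1499.6 CPM. The actin cross-linker Flna was at 1663, 1675, 1719, 1647, 1613 and 3865 CPM. Itga8, the integrin subunit known from mesenchymal and smooth muscle cells, was at 2.05, 1.88, 2.1, 2.17, 1.63 and 14.6 CPM. The shared subunit Itgb1 was the second of the list by CPM, and its log2 ratio of 0.76 was inside the rule.

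Fibroblast genes were expressed in every library. All 18 fibroblast genes were expressed, 4 of them higher (22.2%, beside 4.86% over all genes counted) and 0 lower in control 6. Pdgfra and Pdgfrb, the platelet-derived growth factor receptors of mesenchymal cells, were at 183, 188, 188, 179, 176 and 254 CPM and 473, 466, 486, 486, 452 and 646 CPM. Thy1, the surface protein CD90, was at 322, 317, 317, 308, 317 and 743 CPM. S100a4, a calcium-binding protein used as a fibroblast marker, was at 41.5, 43.4, 39.1, 38.8, 47.1 and 420.4 CPM, 10.0-fold higher in control 6 than the mean of the others.

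Markers of subsets of intestinal mesenchyme were present in part. Of the telocyte list, genes of PDGFRA-high cells under the epithelium, 5 of 11 were expressed. Of 6 counted, 1 was higher in control 6 (16.7%, beside 4.86% over all genes counted) and 0 lower. The higher gene was F3, the highest of the list by CPM. The list summed to 325 to 338 CPM in control 1 to 5 and to 907 in control 6. Of these sums F3 alone made up 168 to 178 CPM in control 1 to 5 and 703 in control 6. Foxl1, the defining transcription factor of telocytes, was at 1.24, 1.51, 1.09, 1.12, 0.734 and 0.763 CPM and not expressed by the rule. Bmp5 and Bmp7 were at 0 to 0.408 and 0 to 0.326 CPM in control 1 to 5 and without a count in control 6. Foxf1, a transcription factor of gut mesenchyme, was at 47.1, 54.1, 50.9, 48.6, 51.7 and 53.4 CPM. Of the trophocyte list, genes of CD34+ CD81+ cells near the crypt base, 8 of 10 were expressed. Of 9 counted, 5 were higher in control 6 (55.6%, beside 4.86% over all genes counted) and 0 lower. Cd34 was at 69.9, 86.4, 73.1, 74.2, 81.5 and 136 CPM and Cd81 at 361, 376, 366, 357, 378 and 768 CPM, with the latter past the rule. Ackr4, an atypical chemokine receptor of these cells, was at 0.950, 1.66, 0.870, 0.490, 1.06 and 7.76 CPM. Of 9 pericyte genes 7 were expressed, while the defining Rgs5 and Higd1b were near the detection limit.

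Markers of other cell types differed by type, from epithelial genes that were nearly all missing to macrophage genes of which most were expressed. Only 1 of 16 epithelial genes was expressed, Krt19, at 7.16, 6.63, 5.87, 5.74, 7.83 and 10.7 CPM, and the adhesion genes Epcam and Cdh1 never passed 0.0816 CPM. Vil1, Cdx1, Cdx2, Tff3 and Cldn7 had no count in any library. Krt20 was at 0.585, 0.904, 0.943, 0.840, 0.979 and 7.38 CPM, higher in control 6, and the epithelial list summed to 7.56 to 9.38 CPM in control 1 to 5 and 20.5 in control 6. Genes of T cells and natural killer cells were missing, with Cd3e and Nkg7 at 0 in all 6. Of 14 genes of macrophages and other leukocytes 9 were expressed and 0 departed. Lyz2, the lysozyme of macrophages, was at 52.7, 57.7, 51.2, 49.2, 61.4 and 93.2 CPM, and Adgre1, which encodes F4/80, at 1.68, 2.49, 2.68, 2.66, 2.12 and 3.18 CPM. The leukocyte marker Ptprc, or CD45, was at 1.61, 0.678, 0.725, 0.980, 0.898 and 1.65 CPM. The macrophage and leukocyte list summed to 81.3 to 93.4 CPM in control 1 to 5 and 130.3 in control 6, and its part in other results was not tested.

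Endothelial genes were expressed in 3 of 10 cases, with the defining Pecam1 and Cdh5 under 1 CPM in all 6 libraries. Of 10 genes of enteric glia and neurons 6 were expressed, of which Tubb3, a tubulin used as a neuronal marker, was the highest, at 35.5, 37.7, 36.6, 36.7, 38.1 and 39.0 CPM. Sox10, a glial transcription factor, was at 1.90, 2.49, 1.89, 1.89, 2.45 and 1.78 CPM, and the receptor gene Ret at 3.29, 4.97, 3.48, 3.99, 3.18 and 3.37 CPM, while the glial Gfap and S100b were not expressed by the rule. None of the 5 mesothelial genes was expressed in all 6. Of 3 genes of interstitial cells of Cajal 1 was expressed, Etv1, at 7.83 to 9.36 CPM in control 1 to 5 and 13.9 in control 6. Kit, a marker of these cells, was at 0.146, 0.301, 0.218, 0.210, 0.0816 and 0 CPM. Ano1, another marker, was at 0.218 to 1.24 CPM in control 1 to 5 and at 8.65 in control 6, past the rule. Of 6 skeletal muscle genes only Acta1 was expressed, at 17.7, 17.3, 18.0, 17.1, 15.8 and 78.5 CPM, while Myod1, Myf5 and Ckm were near the limit. Of 9 genes of bone and cartilage 3 were expressed, Spp1 among them, 1 was low and 5 were near the limit. Sp7, Bglap and Ibsp, genes of bone formation, were among those near the limit. Adipoq and Plin1 of fat cells were near the limit, and Lpl, which releases fatty acids from lipoproteins, was at 174, 170.1, 183, 176, 167 and 40.6 CPM, lowest in control 6.

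**Figure D3:**
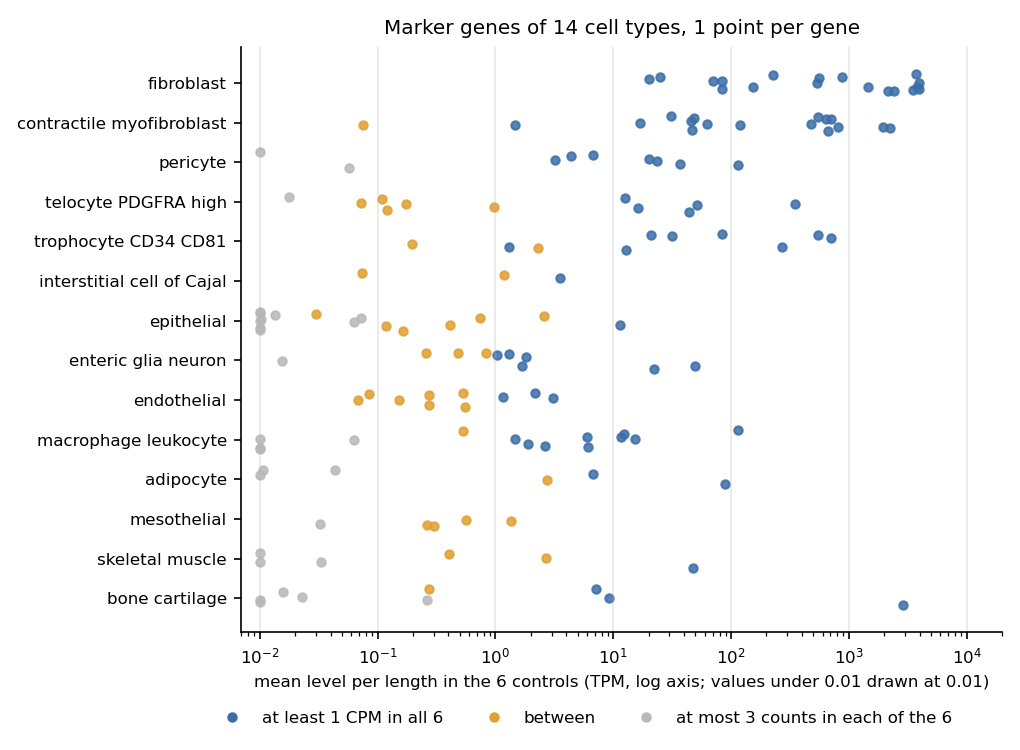
Mean level per length over the 6 controls, on a log axis, for the marker genes of 14 cell types, 1 point per gene and colored by class. Nearly all fibroblast and contractile genes lie above 10 TPM, while most epithelial, endothelial and mesothelial genes lie below 1. A few markers drawn under bone and cartilage (Spp1) or skeletal muscle (Acta1) lie far above the other genes of their lists.

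The Hox genes, which record the position of a cell along the body axis, were led in level by posterior members. Of 39 Hox genes 25 were expressed, with 0 higher in control 6 and a median log2 ratio of 0.13. Per length Hoxb9 led with 41.8 TPM, followed by Hoxa11 with 40.8, Hoxa10 with 26.7 and Hoxd13 with 24.7. Hoxa11 was at 36.5, 39.8, 36.5, 38.4, 38 and 38.1 CPM and Hoxd13 at 24.1, 22.4, 25.2, 24.5, 25.5 and 27.4 CPM, with little spread. Hoxb13 was not expressed by the rule, at 0.365, 0.377, 0.145, 0.210, 0.326 and 0.191 CPM, while Hoxa13 and Hoxc13 had 2.85 to 4.83 and 2.86 to 4.20 CPM in control 1 to 5 and 4.58 and 2.99 in control 6. Hoxb1 had no count.

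**Figure D4:**
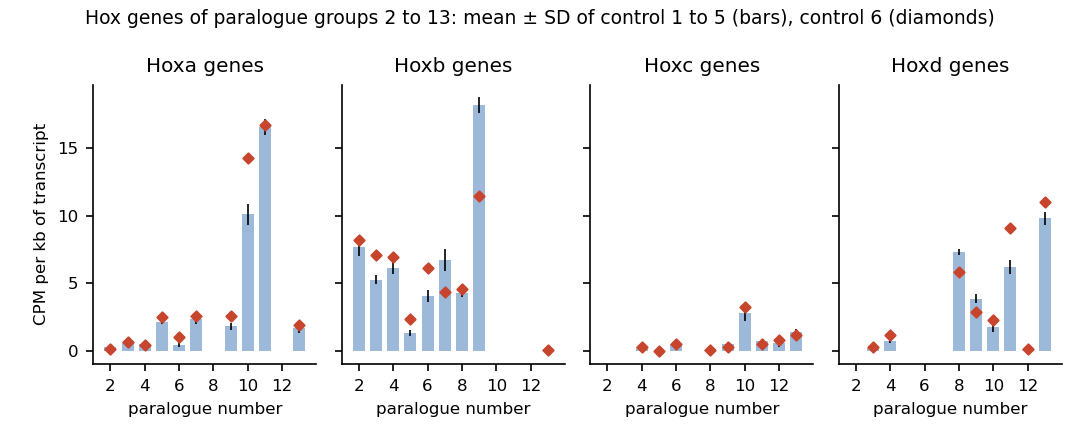
CPM per kb of transcript for the Hox genes from paralogue number 2 upward, ordered by number within the Hoxa, Hoxb, Hoxc and Hoxd genes, as the mean of control 1 to 5 with its SD (bars) and the value of control 6 (diamonds). The tallest bars are Hoxb9, Hoxa11, Hoxa10 and Hoxd13, and the Hoxc genes are low.

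Few Wnt ligands were read in these cells. Of 19 Wnt ligand genes 2 were expressed, 7 were low and 10 were near the detection limit. Wnt5a, a ligand of noncanonical signaling, was at 43.9, 44.7, 43.3, 42.1, 42.8 and 58.4 CPM, and Wnt9a at 4.82, 4.90, 5.37, 4.41, 5.55 and 6.36 CPM. Wnt2b, a canonical ligand known from gut mesenchyme, was at 0.151 to 0.365 CPM in control 1 to 5 and was at 0.636 in control 6. Wnt3, Wnt7a and Wnt9b had no count in any library. Of the R-spondins, which amplify Wnt signals through LGR receptors, Rspo3 was at 38.2, 42.8, 38.5, 39.9, 41.1 and 35.4 CPM and did not depart. Rspo2 was at 2.27, 2.64, 1.81, 1.89, 2.28 and 7.31 CPM, higher in control 6, and Rspo1 and Rspo4 were not expressed. Of 11 secreted Wnt antagonists 4 were expressed, 2 of them higher in control 6. Sfrp1 was the highest by CPM, at 207, 198, 215, 216, 197 and 251, followed by Dkk3 at 105, 109, 103, 103, 109.7 and 277. Dkk2 was at 38.4, 41.3, 39.5, 38.3, 40.1 and 122 CPM and Frzb at 52.5, 49.6, 53.5, 49.9, 53.9 and 79.2 CPM, and the 2 Dickkopf genes were those past the rule. Notum, Dkk1 and Sfrp5 had at most 1 count in any library.

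BMP antagonists ranged widely in level per length. The mean over the 6 libraries was 775 TPM for the follistatin-like Fstl1 and 270.3 for Grem1, but 1.53 for Chrdl1 and 0.317 for Nog, the gene of noggin. Of the ligands, Bmp6 was at 3.44 TPM and Bmp4 at 2.29 TPM. Grem1, a BMP antagonist of the crypt base, was at 349.8, 376, 369, 357, 358 and 882 CPM, past the rule in control 6. Fst, or follistatin, which binds activin, was at 7.09, 6.78, 8.27, 7.49, 8.40 and 109 CPM, 14.3-fold higher in control 6. Of 10 antagonists 7 were expressed, and 4 of the 8 counted were higher in control 6 with 0 lower. Bmp4, the ligand best known from gut mesenchyme, was at 1.90, 1.66, 1.81, 1.82, 1.88 and 2.42 CPM and did not depart, and Bmp2 and Bmp3 were near the limit. Bmp1, which is a procollagen protease despite its name, was the highest of the ligand list by CPM and per length, at 309, 302, 313, 319, 300.0 and 699 CPM. Inhba, the activin A subunit, was at 41.0, 42.9, 39.4, 42.0, 41.9 and 175 CPM. Gdf15, a stress-induced member of the family, was the single gene of 11 that was lower, at 25.7, 25.7, 27.3, 28.8, 26.2 and 7.70 CPM.

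All 10 genes of TGF-beta ligands, receptors and latent binding proteins were expressed. Of these, 2 were higher in control 6 (20%, beside 4.86% over all genes counted) and 0 lower. Tgfb1 was at 83.0, 85.3, 85.1, 80.6, 88.3 and 77.4 CPM, while Tgfb3 was at 76.0, 83.3, 76.3, 76.3, 84.9 and 159 CPM. Ltbp1, which stores latent TGF-beta in matrix, was at 140.3, 135, 147, 141, 130.4 and 371 CPM, past the rule. Hedgehog ligands were missing, with Shh at 0 and Ihh and Dhh at no more than 0.301 CPM. The receptor Ptch1 was at 5.48, 5.2, 5.37, 5.67, 4.57 and 6.11 CPM, and Smo, the transducer, at 125, 124, 137, 122, 132 and 121 CPM. Gli1, a target gene of active signaling, was at 0, 0.151, 0.0725, 0.0700, 0.163 and 0.254 CPM. Among 9 Notch genes the receptor Notch2 was highest by CPM, at 105, 106, 108, 109, 101 and 229, and the ligand Jag1 was at 8.41, 8.28, 8.27, 7.07, 8.49 and 11.2 CPM.

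Growth factors for epithelium were expressed selectively. Hgf, the ligand of the MET receptor, was at 94.6, 92.6, 95.9, 96.3, 86.3 and 156 CPM, and Fgf7, or keratinocyte growth factor, at 43.0, 41.7, 41.3, 43.9, 40.6 and 107 CPM. Fgf10, a mesenchymal ligand of epithelial FGF receptors, was at 34.1, 34.7, 36.5, 33.0, 35.7 and 172 CPM, 4.94-fold higher in control 6. Igf1 was at 10.1, 11, 11.3, 10.4, 9.87 and 49.7 CPM and 4.73-fold higher. The endocrine factor Fgf21 was the member lower in control 6, at 7.24, 6.70, 7.25, 9.10, 8.00 and 1.08 CPM. Of 11 ligands of the EGF family 3 were expressed. Ereg, or epiregulin, led by CPM with 23.8, 26.4, 25.1, 25.1, 25.6 and 78.5, ahead of Hbegf with 13.4, 14.2, 13.8, 13, 12.9 and 28.4 and Nrg1 with 3.22, 3.99, 3.70, 2.73, 2.61 and 6.30, while Egf itself stayed near 1 CPM. Vegfa was at 344, 361, 352, 349, 353 and 371 CPM, and the lymphatic and vascular growth factor Vegfd, listed under its older symbol Figf, at 19.7, 21.8, 21.7, 21.3, 20.6 and 145 CPM.

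Of 30 chemokines and cytokines 12 were expressed. Csf1, the growth factor of macrophages, was the highest by CPM and per length, at 1038, 1053, 1055, 1039, 1041 and 2895 CPM, and 2.77-fold higher in control 6. Cxcl12 was at 239, 208, 233, 233, 213 and 371 CPM, Ccl7 at 67.2, 62.0, 61.6, 64.8, 60.4 and 66.5 CPM and Ccl2 at 47.1, 41.9, 46.2, 43.5, 46.2 and 50.9 CPM, none of them past the rule. Ccl5 was at 4.68, 5.42, 6.31, 7.28, 6.77 and 0.636 CPM, lower in control 6. Inflammatory cytokines were low. Il6 was at 0.731, 0.979, 0.725, 0.560, 0.898 and 2.61 CPM, with control 6 past the rule. Tnf, the ligand of TNFR1, was at 0, 0.452, 0.0725, 0.0700, 0.326 and 0.0636 CPM, and Il1a and Il1b were near the limit. In the prostaglandin list 8 of 14 genes were expressed. Ptgs2, the inducible cyclooxygenase, was at 210.4, 209, 201, 209, 205 and 1085 CPM, 5.24-fold higher in control 6, while the constitutive Ptgs1 was at 292, 295, 304, 296, 276 and 384 CPM.

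The gene list with the most negative median ratio in control 6 was that of genes that fold and degrade proteins in the ER. The ER folding and degradation list was drawn up after values of control 6 had been seen, so its count describes these libraries only: 19 of 28 genes were lower, 0 higher, and all 28 had a ratio below 0 (median log2 ratio -1.43). The list took 4.72% to 5.08% of the counts in control 1 to 5 and 1.58% in control 6. When unfolded proteins build up in the ER, the sensors IRE1, PERK and ATF6 switch on such genes, a program called the unfolded protein response. Several of them carry an ER stress element in the promoter, CCAAT followed after 9 bases by CCACG. The sequences below, from RefSeq (GRCm38.p6), are the 250 bases before the start of 4 of these genes, 5′ to 3′ in the direction of transcription, shown because they hold the element, which is in capitals (on the opposite strand it reads CGTGG, 9 bases, ATTGG).
Hspa5: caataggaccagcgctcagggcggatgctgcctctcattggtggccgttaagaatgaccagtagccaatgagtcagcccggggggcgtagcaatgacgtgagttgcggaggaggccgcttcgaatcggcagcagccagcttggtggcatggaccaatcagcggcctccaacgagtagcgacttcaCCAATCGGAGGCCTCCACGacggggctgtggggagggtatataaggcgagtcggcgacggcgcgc
Hsp90b1: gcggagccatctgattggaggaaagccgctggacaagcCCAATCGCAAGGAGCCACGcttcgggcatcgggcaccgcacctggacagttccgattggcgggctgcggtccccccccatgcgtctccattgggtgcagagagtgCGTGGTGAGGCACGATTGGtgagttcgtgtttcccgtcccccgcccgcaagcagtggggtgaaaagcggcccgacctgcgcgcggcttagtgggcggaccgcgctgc
Creld2: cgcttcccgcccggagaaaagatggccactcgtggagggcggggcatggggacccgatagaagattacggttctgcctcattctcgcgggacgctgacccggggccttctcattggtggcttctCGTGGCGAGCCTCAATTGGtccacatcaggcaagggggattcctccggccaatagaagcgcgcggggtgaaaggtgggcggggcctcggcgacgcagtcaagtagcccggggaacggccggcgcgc
Derl3: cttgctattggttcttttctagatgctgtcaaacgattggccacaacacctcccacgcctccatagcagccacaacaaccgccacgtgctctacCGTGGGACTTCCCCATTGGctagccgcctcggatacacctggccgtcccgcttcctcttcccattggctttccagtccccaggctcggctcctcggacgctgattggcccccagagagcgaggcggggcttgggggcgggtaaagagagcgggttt

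These windows are at chr2:34771840-34772089 (plus strand) for Hspa5, chr10:86705445-86705694 (minus strand) for Hsp90b1, chr15:88819396-88819645 (plus strand) for Creld2 and chr10:75893148-75893397 (plus strand) for Derl3. The element begins 65 bases before the start in Hspa5, 126 in Creld2, 156 in Derl3, and 212 and 107 in Hsp90b1, which holds 2. In windows from 250 bases before to 50 after a start, searched on both strands, 9 of the 22 list members with a window held the element (40.9%), beside 37 of 27025 symbols of the whole promoter table (0.137%). The 9 were Hspa5, Hsp90b1, Calr, Canx, Pdia6, Dnajc3, Creld2, Syvn1 and Derl3, and 7 of them were lower in control 6 by the 2-fold rule, Canx and Syvn1 being the others. Outside the list 8 counted genes held the element, of which 1 was lower (Alg12, a mannosyltransferase of ER glycosylation, at 33.3, 33.4, 34.8, 36.1, 32.9 and 14.2 CPM) and 0 higher, with a median log2 ratio of -0.20. The motifs were chosen after the values had been seen, and a match describes the letters of a window, not a bound site.

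Hspa5, the ER chaperone BiP, was at 10636, 9831, 10639, 10714, 9929 and 1978 CPM, 5.23-fold lower in control 6 than the mean of the others. It took 1.01% to 1.11% of the counts in control 1 to 5 and 0.189% in control 6. Hsp90b1, the chaperone GRP94, was at 8675, 8162, 8658, 8763, 8302 and 2613 CPM and 3.26-fold lower. Creld2, a secreted ER stress protein, was at 846, 776, 838, 834, 757 and 103 CPM. Derl3, a channel component of ER-associated degradation, was at 82.9, 80.7, 86.1, 80.8, 78.9 and 1.78 CPM and had the most negative log2 ratio of the list, -5.17. Its paralogues Derl1 and Derl2, at 471 to 500.4 and 79.5 to 88.6 CPM in control 1 to 5, had log2 ratios of -1.02 and -0.75. The disulfide isomerase Pdia4 was at 3399, 3064, 3435, 3455, 3117 and 711 CPM, against -0.60 on the log2 scale for P4hb, which also serves collagen hydroxylation. Herpud1, another degradation factor, was at 597, 539, 592, 574, 537 and 95.7 CPM. The members that differed least from the other libraries were the translocon gene Ssr1, with a log2 ratio of -0.35, and the lectin chaperone Canx, with -0.47.

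Of the sensors and transcription factors of this response, 1 of 6 genes passed the rule. Ern1, which encodes IRE1, was at 28.9, 25.9, 28.3, 26.1, 25.2 and 26.6 CPM, and Eif2ak3, which encodes PERK, at 49.3, 43.2, 49.4, 47.6, 43.3 and 54.8 CPM. Both sensors were close to the other libraries in control 6, while Atf6 had a log2 ratio of -0.67, inside the rule. The transcription factor Xbp1 was at 194, 192, 192, 193, 189.9 and 115 CPM and Atf4 at 470.4, 461, 455, 456, 462 and 231 CPM, below the other libraries but inside the rule. Ddit3, the stress factor CHOP, was at 778, 788, 808, 815, 797 and 97.7 CPM, 8.16-fold lower in control 6.

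Of 20 genes of the amino acid response downstream of ATF4, again listed after values had been seen, 11 were lower in control 6, 9 were inside the rule and 0 higher (median log2 ratio -1.14). Trib3, a pseudokinase that restrains ATF4, was at 279, 269, 264, 273, 266 and 59.2 CPM, and Ppp1r15a, which restores translation after stress, at 266, 276, 266, 270.4, 281 and 53.2 CPM. The amino acid transporter Slc7a11 was at 52.7, 53.2, 50.8, 47.3, 50.9 and 15.1 CPM and Slc7a5 at 569, 568, 576, 565, 543 and 248 CPM. Asns, the asparagine synthetase, was inside the rule, at 238, 230.4, 232, 237, 233 and 137 CPM. The motif TTGCATCA, bound by CEBP and ATF4 dimers, was found on either strand in 5 of the 18 list members with a window (27.8%), Atf3, Chac1, Slc7a11, Nupr1 and Vldlr, beside 1.03% of all symbols of the promoter table. Of these 5 only Vldlr, with a log2 ratio of -0.28, was not lower by the rule.

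Part of the genes of the translation machinery passed the rule. All 81 ribosomal protein genes counted had a ratio below 0 in control 6, and 24 were lower by the rule (median log2 ratio -0.96, median length 0.914 kb). They took 7.05% to 7.57% of the counts in control 1 to 5 and 3.37% in control 6. Rplp1 was at 1884, 2013, 1876, 1896, 2078 and 953 CPM. Of 12 translation factors 2 were lower and all 12 had a ratio below 0. Eef1a1 was at 11302, 11684, 11333, 11456, 11705 and 6764 CPM, inside the rule, and Tpt1, a small protein bound to translation, at 2641, 2707, 2639, 2668, 2819.6 and 1309 CPM. Both lists were drawn up after values had been seen.

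Interferon-stimulated genes were expressed without added interferon, 24 of 26 in all 6 libraries. In control 6, 7 of the 26 were lower (26.9%, beside 3.05% over all genes counted) and 0 higher (median log2 ratio -0.77). Irf7, a transcription factor of this response, was at 136, 148, 139, 135, 156 and 36.1 CPM, and Isg15, a ubiquitin-like modifier, at 204, 208, 201, 199, 214 and 70.7 CPM. Not all members were low, and Ddx58, the RNA sensor RIG-I, was at 103, 96.2, 100.1, 105, 93.3 and 104 CPM, inside the range of the others in control 6. Among 17 genes of antigen presentation and complement 2 were higher (11.8%, beside 4.86% over all genes counted) and 3 lower (17.6%, beside 3.05%). B2m, the light chain of class I molecules, was at 694, 657, 678, 697, 699.6 and 529.9 CPM. Complement C3 was at 35.3, 29.8, 34.1, 36.2, 31.2 and 92.2 CPM, higher in control 6, and Cfb, factor B, at 9.14, 11, 9.06, 9.10, 11 and 2.99 CPM, lower. Cd55, which protects cells from complement, was at 3.80, 3.92, 4.71, 4.97, 4.49 and 73.9 CPM, 16.9-fold higher in control 6.

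All 29 cell cycle genes were expressed in all 6 libraries and 0 passed the rule in either direction, beside 4.86% higher and 3.05% lower over all genes counted. The list summed to 778 to 880.2 CPM in control 1 to 5, lowest in control 2 and 5, and to 805 CPM in control 6, and the median log2 ratio was -0.15. Mki67, present in dividing cells, was at 50.3, 41.7, 51.1, 54.2, 39.6 and 47.4 CPM, and the mitotic topoisomerase Top2a at 75.2, 52.8, 79.0, 72.0, 58.5 and 64.8 CPM, with control 6 inside the range of the others for both genes. Mcm2 of the replicative helicase was the member farthest below, at 69.0, 69.4, 73.6, 77.2, 63.1 and 35.3 CPM, a log2 ratio of -0.99. The cell cycle inhibitor Cdkn1a, or p21, was at 390.0, 409, 388, 385, 399 and 443 CPM, and Cdkn2a, whose products mark senescent cells, at 68.1, 72.4, 63.1, 62.1, 71.6 and 122 CPM. Of 14 genes of senescence and the p53 response 1 was lower, Gdf15 (7.14%, beside 3.05% over all genes counted).

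Of 21 genes of glycolysis and hypoxia 2 were lower in control 6 (9.52%, beside 3.05% over all genes counted) and 0 higher. The ratio was below 0 for 17 of the 21, with a median of -0.27 on the log2 scale. Pkm, the pyruvate kinase, was at 2467, 2512, 2483, 2473, 2468 and 2983 CPM, and Ldha at 1108, 1126, 1102, 1096, 1118 and 1139 CPM. The 2 lower genes were the hypoxia-inducible Ndrg1, at 115, 112, 113, 115, 111 and 34.5 CPM, and Egln3, at 45.8, 47.8, 50.1, 47.3, 47.7 and 18.1 CPM. Of 20 genes of cholesterol synthesis and uptake 7 were higher in control 6 (35%, beside 4.86% over all genes counted). The other 13 were inside the rule and 0 were lower, with a median log2 ratio of 0.90 for the list. Hmgcs1, a synthase early in the pathway, was at 78.1, 78.8, 70.5, 77.0, 79.4 and 220.5 CPM, and Idi1, an isomerase of isoprenoid units, at 26, 24.2, 24.4, 28.0, 25.7 and 70.5 CPM, both past the rule. Mvd was the member with a ratio below 0, -0.41.

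**Figure D5:**
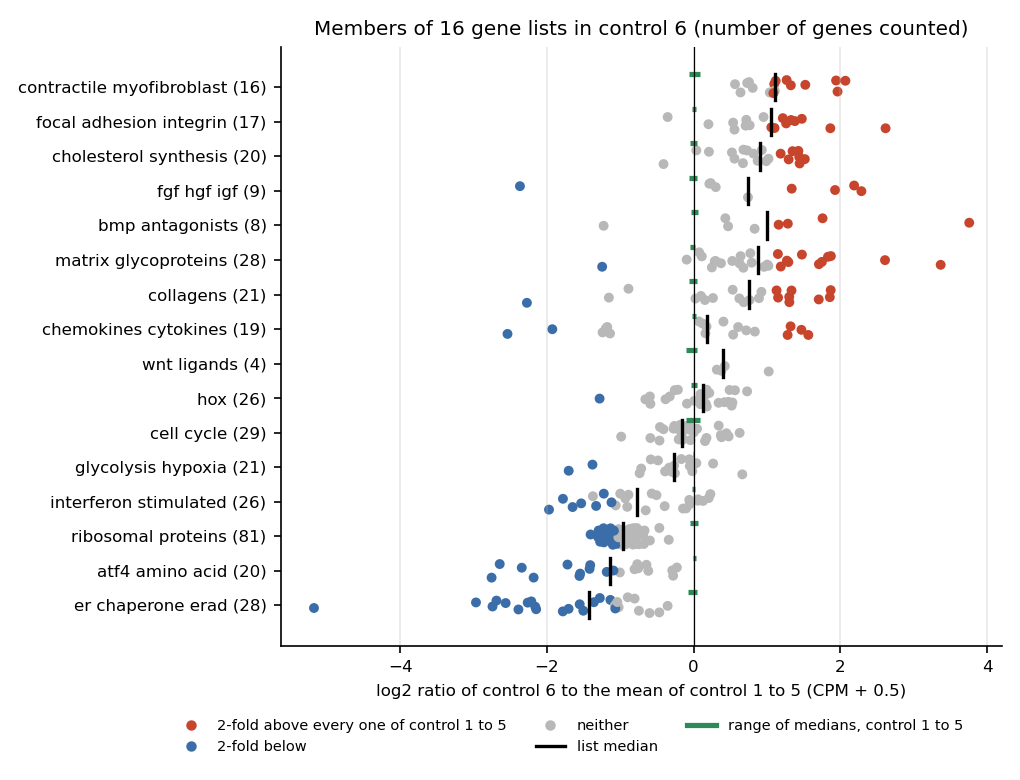
The log2 ratio of control 6 to the mean of control 1 to 5, on the CPM + 0.5 scale, for the counted members of 16 gene lists, 1 point per gene, with the list median as a black bar and the range of the same median over control 1 to 5 in green. List medians run from -1.43 for the ER genes to 1.10 for the contractile genes, while the green ranges stay close to 0.

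Of 10 genes of the imprinted list 2 were higher and 1 lower in control 6 (20% and 10%). Over all genes counted the shares were 4.86% higher and 3.05% lower. Meg3, a maternally expressed long noncoding RNA, was at 138, 126, 131, 138, 129.9 and 1183 CPM, and Peg3, a paternally expressed zinc finger gene, at 5.85, 4.74, 7.98, 6.86, 4.16 and 64.4 CPM. H19 went the other way, at 12.4, 13.5, 12, 10.9, 14.5 and 2.54 CPM, and Igf2, its imprinted neighbor, was low throughout, at 4.46, 6.4, 4.79, 4.41, 4.81 and 5.85 CPM. Of 19 immediate early genes 1 was higher (5.26%, close to the share over all genes) and 3 were lower (15.8%). Atf3 was at 21.6, 22.4, 25.5, 25.6, 26.5 and 3.18 CPM, Fos at 23.6, 22.2, 22.0, 22.7, 23.9 and 9.60 CPM, and the nuclear receptor Nr4a1 at 13.7, 14.2, 12.7, 12.3, 14.4 and 63.1 CPM, the member higher in control 6.

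The 12 largest ratios in each direction, among genes past the rule with at least 10 CPM in control 6 or on average in the others, included secreted and membrane proteins. Above the others, Cemip, which degrades hyaluronan, was at 7.46, 4.82, 6.31, 6.16, 5.30 and 239.8 CPM, a log2 ratio of 5.21. Angptl7, an angiopoietin-like secreted protein, was at 4.31, 3.54, 3.12, 3.64, 2.61 and 136 CPM. The others were Cd55, Fst, Cacna1g, Snhg11, Itgbl1, Olr1, Thbs1, Peg3, Cck and S100a4, with log2 ratios from 3.31 to 3.93. Cck, the gene of the gut hormone cholecystokinin, was at 35.7, 29.0, 31.8, 34.2, 29.8 and 328 CPM. Below the others, Derl3 was followed by Car6, a secreted carbonic anhydrase, at 101, 94.1, 99.3, 99.4, 97.0 and 6.11 CPM, then Dlg2, Avil, Igfbp3, Zcchc5, Chchd10, Nrip2, Ddit3, Tenm4, Creld2 and Klf15. Igfbp3, which binds insulin-like growth factors, was at 804, 826, 800.3, 815, 855 and 66.1 CPM, 12.4-fold lower in control 6. Chchd10, a mitochondrial protein, was at 159, 163, 155, 159, 164 and 16.5 CPM.

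Coefficients of variation among control 1 to 5 were compared for genes with a mean of at least 10 CPM there. The genes with the largest values were mostly copies of other genes. Tmem254c was at 8.21, 13, 1.40, 0.626, 54.0 and 1.70 CPM and its copy Tmem254b at 47.2, 37.5, 50.1, 53.2, 0 and 29.5 CPM, and in control 5, where Tmem254b had no count, Tmem254c was at its highest. Rpl34-ps1, a processed pseudogene, was at 7.08, 12.8, 44.9, 65.7, 16.0 and 10.0 CPM, and Eno1b at 134, 67.4, 243, 128, 31.3 and 27.4 CPM. RSEM divides reads that fit several copies among them, so levels of such genes are uncertain. Ctla2a, at 35.9, 72.0, 31.9, 34.1, 74.6 and 59.1 CPM, was high in control 2 and 5, and so was Ctgf.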

How the data were processed

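RNA of 6 control and 6 knockout libraries of cultured colonic myofibroblasts was sequenced, and the 6 control libraries are described here. The deposited table gives expected counts per gene symbol, made by the authors with Bowtie2 2.1.0 and RSEM 1.2.15 per the submitters' processing notes. The notes name a human build although the symbols are those of mouse genes, so no coordinates were taken from the table. For the strand setting and the annotation used in counting, the sources give nothing. Between 3.05% and 3.48% of the values of a library had decimals. All genes were kept as listed. In edgeR 4.0.16 (R 4.3.3), TMM factors were computed over all 12 libraries from the genes passing filterByExpr, and counts were divided by the scaled library size to give CPM. Levels per length used the longest GENCODE M21 transcript of a symbol. Ratios of control 6 were taken on CPM + 0.5, over genes with at least 1 CPM in control 6 or on average in control 1 to 5. No groups were compared and no p-value was computed. The sole criterion set against a critical value is Dixon's ratio for a library apart, in the closing section. The rule was tested on simulated data.

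Members and lists were chosen with earlier results of these data known. Beside the 41 lists chosen first, 5 (ER folding, unfolded protein response, ATF4, translation factors, ribosomal proteins) were added after the values were seen. Genes were named by rule: the markers and Tnfrsf1a, the 20 most abundant, from each list up to 3 of highest CPM, up to 3 departures in each direction and, for other cell types, the first 3 near the limit, and the 12 largest departures in each direction with at least 10 CPM. That gave 233 genes, some of which are not reported here. Of 191 genes with values in the text, not counting F3, Etv1 and Ano1, 80 lay outside the rule and were chosen after their values were seen. Vegfd, Ccn1 and Ccn2 are listed as Figf, Cyr61 and Ctgf. Promoter windows are RefSeq's (GRCm38.p6). Alternatives used DESeq2 1.42.0 size factors, other filters, pseudocounts and folds. Python 3.11.15 was used with pandas 2.3.3 and numpy 2.4.6.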

Additional observations from a re-analysis of the deposited data

Results flagged for a closer look

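For each value of the report over the 6 libraries, the gap between the highest or lowest library and its nearest neighbor was divided by the range of all 6 (Dixon's ratio, set against its 95% critical value). By chance about 1 group in 20 passes, a share that does not apply to the genes named here, most of which were named because control 6 departed or after their values were seen. Their ratios are a description and support nothing. Of 194 items compared 136 were past the critical value, and in 135 of them control 6 was the library apart. Over all expressed genes 4846 of 11623 were past it (41.7%), 4708 of them with control 6 apart. The share of counts in the 20 most abundant genes had a ratio of 0.87. Tmem254c had a ratio of 0.77, with control 5 apart, and shares reads with near-identical copies. For all genes that follow, control 6 was apart. The ratio had these values. It was 1.00 for Thbs1, 0.99 for Angptl7, Cemip, Csf1, Meg3, Ptgs2, Timp3 and Vcl, 0.98 for Cck, Cd55, Figf, Fst and S100a4, 0.97 for Dkk2, Fgf10, Fstl1, Inhba, Itgb1 and Thy1, and 0.96 for Acta1, Adamts1, Cnn1, Col4a1, Cyr61, Dkk3, Igf1, Itga8, Nr4a1 and Tnc. The next values were 0.95 for Bmp1, Cd81, Col12a1, Ddit3, Ereg, Fbln2, Fgf7, Flna, Grem1, Ndrg1, P4hb and Xbp1, 0.94 for Chchd10, Col4a2, Hmgcs1, Hspg2, Krt20, Malat1, Mmp11, Myh9, Nid2, Notch2, Peg3 and Ppp1r15a, 0.93 for Atf4, Car6, Des, Igfbp3, Lmod1, Ltbp1, Nid1 and Trib3, 0.92 for Acta2, Asns, Derl3, Eef1a1 and Idi1, and 0.91 for Hbegf, Pkm and Srf. Below these it was 0.90 for C3, Hsp90b1, Hspa5 and Slc7a5, 0.89 for Ctgf, Derl1, Fn1, Isg15, Lpl and Tgfb3, 0.88 for Creld2, Ddx3y, Herpud1, Myh11, Tpt1 and Vim, 0.87 for Egln3 and Fos, and 0.86 for Hgf, Pdia4 and Tagln. Then it was 0.85 for Alg12, Col14a1, Col18a1, Frzb, Gdf15, Rspo2 and Slc7a11, 0.84 for Ackr4, Pdgfra and Wnt5a, 0.83 for Cdkn2a, Irf7, Klf15 and Pdgfrb, 0.82 for Col1a1, Rplp1 and Ssr1, and 0.81 for Atf6 and Cxcl12. Further down it was 0.80 for Hoxb9, Il6 and Mmp14, 0.79 for Atf3, 0.77 for Derl2, 0.76 for Cfb, and 0.75 for B2m and Cd34. Next came 0.74 for Ftl1 and Ptgs1, 0.72 for Lyz2 and Mvd, 0.71 for Eln and Mmp2, 0.70 for Col15a1, Fgf21, H19 and Tnfrsf1a, and 0.68 for Bmp4. Still lower it was 0.67 for Vldlr, 0.66 for Jag1 and Mcm2, 0.65 for Canx and Sfrp1, and 0.63 for Nrg1.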

How the results depend on the processing

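No paired analysis was possible because no groups were compared. The number of genes expressed was 11623 to 11647 under the other scalings and without Rn45s, 12133 when 3 of 6 libraries at 1 CPM were enough, 8359 at 10 CPM, and 11640 to 11719 with 1 library left out. Genes higher and lower in control 6 numbered 604 and 379. They were 431 to 699 and 272 to 505 under other scalings, pseudocounts and filters, 620 to 642 and 389 to 399 with 1 of control 1 to 5 left out, 1478 and 1108 at a fold of 1.5, and 79 and 61 at a fold of 4. The 20 most abundant genes held 12.7% of the counts on average, 12.2% without Rn45s, 12.5% to 12.8% with 1 library left out, and 10.2% when genes were ranked per length, a ranking that shares 12 of its 20 genes. Of 313 genes recomputed under 10 settings, 18 changed the sign of their ratio under at least 1, and 0 of these were past the 2-fold rule. No list median changed sign, apart from the median over all genes, which lay at -0.01. At this depth a count of 0 allows a level of up to 0.191 to 0.245 CPM (3 counts).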

Other observations

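Several abundant genes outside the lists also departed in control 6. Myh9, the heavy chain of nonmuscle myosin, was at 1726, 1708, 1777, 1719.8, 1613 and 4429 CPM in control 1 to 6, and Hspg2, the basement membrane proteoglycan perlecan, at 846, 856, 904, 854, 807 and 2459 CPM. The nuclear noncoding RNA Malat1 was at 404, 434, 394, 409, 449.8 and 1345 CPM. Each of these was highest in control 6. Their reference transcripts are 7.43, 14.2 and 6.98 kb long, in this order. Klf15, already named among the 12 largest ratios below the others, was less abundant than these. This transcription factor, known as a glucocorticoid target, was at 31.1, 34.4, 36.7, 34.0, 33.7 and 4.01 CPM, lowest in control 6.

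Smaller differences were seen among control 1 to 5, with control 2 and control 5 on the same side, as in the chi-square of library pairs. Mgp, a matrix protein that inhibits calcification, was at 646, 823, 652, 655, 849 and 697 CPM in control 1 to 6. Lum, or lumican, a proteoglycan of collagen fibrils, was at 19.2, 28.4, 19.4, 20.3, 26.4 and 35.7 CPM. Top2a went the other way, at 75.2, 52.8, 79.0, 72.0, 58.5 and 64.8 CPM. These are values of single libraries that were noticed after they were seen, and they were not tested.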
